A study of Mus musculus with 18 samples.

Results

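The difference between the doxycycline (Dox) effect at day 5 and the Dox effect at day 3 of gastruloid differentiation was measured, that is, (day 5 Dox minus day 5 control) minus (day 3 Dox minus day 3 control) on the log2 scale. It asks which parts of the course from 72 to 120 h differ between Dox and control. The members are the day 3 and day 5 libraries, 12 of the 18 libraries of the series. They fall into 4 groups of 3: day 3 control, day 3 Dox, day 5 control and day 5 Dox.

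All 4 groups are the mouse embryonic stem cell line RHKI, a derivative of E14Tg2a that carries an HA-tagged, Dox-inducible Rnaseh1 knock-in, so the control cells carry the knock-in too. A gastruloid is a ball of such cells that develops, outside the embryo, structures resembling the early body axis. The Dox groups received 500 ng/ml Dox during the 48 h that preceded differentiation. Whether Dox stayed in the medium later is not stated. No group received Dox without the knock-in, so an effect of Dox itself cannot be told apart from induction of Rnaseh1. Poly(A) RNA was sequenced from each sample. The labels do not say that the libraries of a group are separate cultures, so each p-value is relative to the spread among these libraries, which may be technical. Whether the line is 1 clone is not stated either.

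Rnaseh1 encodes ribonuclease H1, which cuts the RNA strand of RNA-DNA hybrids, among them the R-loops that form when a transcript pairs with its template DNA. Between day 3 and day 5 a gastruloid passes from primitive streak and tailbud states to somites, neural tube and other tissues. Hedgehog, retinoic acid, FGF and Notch signals pattern these tissues, and Hox genes mark their position along the head-to-tail axis.

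Library depth was 27302352 to 38128366 counts. The gene that the knock-in carries, Rnaseh1, was measured first. In CPM (counts scaled to library size and TMM factor), Rnaseh1 was at 23.2, 25 and 25.1 in day 3 control and 70.7, 73.3 and 69.0 in day 3 Dox. At day 5 it was at 20.2, 20.9 and 20.4 in control and 55.6, 59.2 and 62.4 in Dox. All Dox libraries lay above all control libraries of the same day, and the Dox effect was 1.54 ± 0.053 (log2, SE) at day 3 and 1.53 ± 0.054 at day 5. Its change between the days was -0.01 ± 0.075 (adjusted p = 0.98, edgeR quasi-likelihood test with Benjamini-Hochberg adjustment over 16733 genes, as for all adjusted p here).

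Of 16733 genes tested, 563 (3.36%) passed adjusted p under 0.05 for the change in the Dox effect. The Dox effect was higher at day 5 than at day 3 for 243 genes (1.45%) and lower for 320 (1.91%), and the median over all genes was -0.01. Past the threshold or not, values were above 0 for 8050 of the 16733 genes and below 0 for 8683. Every count of list members below is to be read beside these values over all genes. The lists and their members were chosen with earlier results of these data known. Level was not matched between a list and all genes, so no such count is a test of a list. With library size alone as the scaling the split was 285 higher and 243 lower. At day 3 alone 8 genes were higher in Dox (0.0478%) and 0 lower, and at day 5 1006 were higher (6.01%) and 1153 lower (6.89%). In control, 6134 genes rose (36.7%) and 6142 fell (36.7%) from day 3 to day 5, and in Dox 6123 rose (36.6%) and 6225 fell (37.2%). These comparisons share libraries, so they are read side by side only. All 3 Dox libraries lay above all 3 control libraries for 5.97% of genes at day 3 and 13.3% at day 5, and below them for 5.36% and 14.4%.

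**Figure D1:**
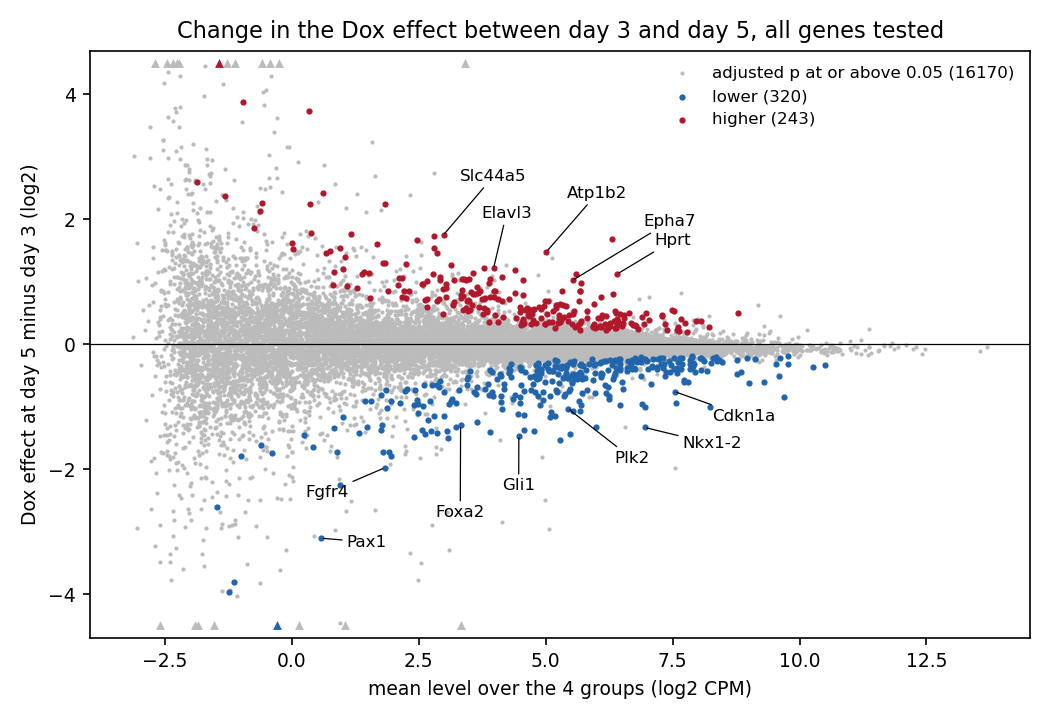
Change in the Dox effect from day 3 to day 5 (log2, vertical axis) against the mean level over the 4 groups (log2 CPM, horizontal axis) for all 16733 genes tested, with 243 genes higher (red) and 320 lower (blue) at adjusted p under 0.05. Triangles mark values beyond ±4.5, and the spread of the grey genes widens toward low levels; Gli1 at -1.47, Plk2 at -1.03 and Epha7 at 1.03 are labelled among the coloured points.

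A fit of all 18 libraries, which adds the day 0 libraries to the estimate of the spread, called 63 genes higher and 83 lower, all 146 among the 563. Among the 91 genes past the threshold that the naming rule gave or that were singled out, 65 kept the call in each of 12 fits that left out 1 library, and 34 kept it in each of 20 alternative fits (a requirement of an absolute log2 change of at least 1 was applied to the counts of all genes only). Of those 34, the genes described here are Slc44a5, Grm4, Celf3, Pde1b, Atp1b2, Gpm6b, Garem2, Zfp981, Actn3, Fabp7, Epha7, Hprt and Tpp1 among the higher, and Pax1, Dhrs3, Ifitm1, Cabp1, Gli1, Fndc5, Sema3e, Has2, Pax2, Cdh1, Gap43, Rarg, Tbx3, Slc7a3, Eif4ebp1, Cdkn1a, Slc2a1, Grb10 and Asns among the lower. The 18-library fit lost the call of 54 named genes, among them Plk2 (adjusted p = 0.18), Phlda3 (0.05), Elavl3 (0.12), Foxa2 (0.052), Nkx1-2 (0.5), Atf3 (0.57), Perp (0.23), Yars (0.098), Nrarp (0.1) and Peg10 (0.32). Genes below that lost the call when 1 library was left out are given with the number of those 12 fits in which adjusted p was 0.05 or above. Only the 91 genes were followed singly in this way. Other list members given below as past the threshold carry no such mark, and whether each kept its call is not given. In bulk RNA, fewer cells of a type and less RNA per cell cannot be told apart.

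The sclerotome gene Pax1 and the Hedgehog target Gli1 were among the 14 lowest changes of genes with a mean of at least 5 CPM in 1 group. Pax1, a transcription factor of the sclerotome (the part of the somite that forms vertebrae), had the lowest value of the genes named by size, -3.10 ± 0.48 (adjusted p = 0.0015). Pax1 (ENSMUSG00000037034.16, GRCm38 chr2:147361925-147393295) was at 0.138, 0.241 and 0.187 CPM in day 3 control and 0.248, 0.186 and 0.125 CPM in day 3 Dox. At day 5 it was at 4.75, 5.10 and 5.25 CPM in control and 0.409, 0.629 and 0.656 CPM in Dox. The day 3 groups overlap, and all day 5 control libraries lie above all day 5 Dox libraries. The rise of Pax1 from day 3 to day 5 was 4.68 ± 0.24 in control and 1.58 ± 0.33 in Dox.

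Over the 19 tested genes of a list of somite and sclerotome genes, 2 were lower, Pax1 among them, 1 was higher (Fst, 0.55 ± 0.096, a binding inhibitor of activins) and 16 did not pass. The list's median was -0.72, beside -0.01 over all genes. Many of its members were near 0 at day 3, and their change between days was imprecise: Meox1, a factor of the early somite, was at 69.1 to 82.1 CPM in day 5 control and 44.2 to 64.4 CPM in day 5 Dox but at 0.188 CPM or less at day 3, with a change of -2.50 ± 1.6 (adjusted p = 0.5). Summed over the list, Dox lay below control on both days, at 310 to 327 against 347 to 394 CPM at day 3 and 235 to 255 against 266 to 284 CPM at day 5. Most of the day 3 sum was Fst, at 300 to 318 CPM in Dox and 338 to 384 CPM in control, so that sum says little about the other members.

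Gli1, a transcription factor and direct target gene of Hedgehog signalling, was lower by -1.47 ± 0.18 (adjusted p = 0.00018). Gli1 (ENSMUSG00000025407.7, GRCm38 chr10:127329882-127341974) was at 33.6, 30.7 and 30.8 CPM in day 3 control and 32.1, 32.0 and 34.2 CPM in day 3 Dox. At day 5 it was at 15, 20.5 and 17.2 CPM in control and 8.63, 5.66 and 5.52 CPM in Dox. The groups overlap at day 3 and separate at day 5. Of 14 tested genes of the Hedgehog list 2 were lower and 12 did not pass. Among the latter, Ptch1, the main receptor, was at -0.17 ± 0.095 and the ligand Shh at -0.98 ± 1.3. The list's median was -0.08.

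The genes of the ventral neural tube, the region that Hedgehog patterns, all had values below 0, from -2.60 to -0.74, with a median of -1.23 over 8 tested genes; 2 passed (Olig1, Foxa2). Foxa2, a factor of floor plate, notochord and endoderm, was at 18.7, 21.5 and 17.2 CPM in day 3 control and 17.7, 19.1 and 18.3 CPM in day 3 Dox. It was at 1.28, 1.94 and 2.32 CPM in day 5 control and 0.756, 0.817 and 0.627 CPM in day 5 Dox, a change of -1.30 ± 0.25 (adjusted p = 0.0072). Foxa2 fell in both courses, by -3.34 ± 0.14 in control and -4.64 ± 0.17 in Dox. Olig1, a factor of the motor neuron and oligodendrocyte lineage, was below 1 CPM everywhere, at 0.293 to 0.56 CPM in day 5 control and 0.0315 to 0.0629 CPM in day 5 Dox (-2.60 ± 0.6, adjusted p = 0.022, 0.05 or above in 5 of the 12 fits). Nkx6-1, a factor of ventral progenitors, was at 9.22 to 10.9 CPM in day 5 control and 4.16 to 5.25 CPM in day 5 Dox, but its change of -1.46 ± 0.41 did not pass (adjusted p = 0.068). The summed level of the ventral list was 17.5 to 20.6 CPM in day 5 control and 8.47 to 10.2 CPM in day 5 Dox, and 20.4 to 24.8 and 21.2 to 22.4 CPM at day 3.

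Of 17 tested tailbud, 18 retinoic acid and 22 FGF genes, 2, 2 and 3 were lower and 0 higher, beside 1.91% and 1.45% of all genes. With the replicate number as a block, 2 tailbud genes and 1 retinoic acid gene were higher. Leaving out 1 library gave 1 to 2 tailbud genes lower. The fit of all 18 libraries gave 0 tailbud, 2 retinoic acid and 1 FGF gene lower. Nkx1-2, a marker of neuromesodermal progenitors of the tailbud, was at 288, 260 and 235 CPM in day 3 control and 236, 208 and 235 CPM in day 3 Dox. At day 5 it was at 5.42, 5.23 and 4.85 CPM in control and 2.39, 1.19 and 1.73 CPM in Dox. The groups overlap at day 3 and separate at day 5, and the change was -1.33 ± 0.20 (adjusted p = 0.0013). Cdx2, a posterior homeobox factor, was at 48.7 to 52.3 CPM in day 3 control and 36.6 to 45.4 CPM in day 3 Dox, with means of 1.99 ± 0.55 and 0.651 ± 0.26 CPM (SD) at day 5 (-1.37 ± 0.29, adjusted p = 0.013, 0.05 or above in 3 of the 12 fits). Over 17 tested tailbud genes the median was -0.37. Their summed level was 1290 to 1460 CPM in control and 1080 to 1180 CPM in Dox at day 3, and overlapped at day 5, at 514 to 543 and 530 to 545 CPM. T (brachyury), which marks primitive streak and tailbud, fell from 549 to 727 CPM at day 3 to 5.78 to 7.64 CPM at day 5 in control and from 406 to 504 to 3.43 to 4.41 CPM in Dox, and its change did not pass (-0.37 ± 0.21, adjusted p = 0.43, 0.0047 with no filter on low counts). The adjusted p of T with no filter is not read as a result, for the reason given with Pou5f1 below. Of 12 streak and nascent mesoderm genes 0 passed in either direction (median 0.21).

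Dhrs3, which reduces retinaldehyde and so limits retinoic acid, was at 4.91, 5.13 and 4.75 CPM in day 3 control and 2.82, 4.02 and 4.42 CPM in day 3 Dox. At day 5 it was at 4.01, 5.93 and 6.93 CPM in control and 1.48, 0.723 and 1.52 CPM in Dox. The Dox libraries were below control on both days, by more at day 5, with a change of -1.79 ± 0.33 (adjusted p = 0.0057). The effect at day 3 alone, -0.4 ± 0.21, did not pass. Rarg, a retinoic acid receptor, was lower by -0.74 ± 0.086 (adjusted p = 0.00017), from near-equal means at day 3 (control 100 ± 2.4 CPM, Dox 102 ± 3.6 CPM, SD, n = 3) to 14.6 ± 1.2 and 8.93 ± 0.57 CPM at day 5. The other 16 tested genes of this list did not pass. The list's summed level was 377 to 407 CPM in day 3 control and 391 to 410 CPM in day 3 Dox, and at day 5 it was higher in Dox, at 3450 to 3950 CPM against 2460 to 2700 CPM in control. Most of that difference is Crabp1, a carrier of retinoic acid in the cytoplasm, at 1040, 1040 and 868 CPM in day 5 control and 1900, 2260 and 2240 CPM in day 5 Dox, whose change of 0.45 ± 0.28 did not pass (adjusted p = 0.5). Aldh1a2, the main enzyme of retinoic acid synthesis in the trunk, was at 13 to 16 CPM in day 5 control and 3.11 to 5.98 CPM in day 5 Dox, but under 0.3 CPM at day 3 (-1.76 ± 0.71, adjusted p = 0.24).

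In the FGF list, Fgfr4, Etv4 and Fgfr2 were lower among 22 tested genes (median -0.31). Fgfr2, an FGF receptor, was at 202, 200 and 207 CPM in day 5 control and 168, 139 and 129 CPM in day 5 Dox, after 7.75 to 10.4 and 10.4 to 11.3 CPM at day 3 (-0.72 ± 0.15, adjusted p = 0.0098). Etv4, a transcription factor induced by FGF, was lower by -1.13 ± 0.25 (adjusted p = 0.016, 0.05 or above in 4 of the 12 fits). Fgfr4 was at 9.78 to 10.1 CPM in day 5 control and 2.71 to 5.16 CPM in day 5 Dox, with day 3 levels of 0.134 to 0.408 CPM (-1.98 ± 0.51, adjusted p = 0.044, 0.05 or above in 10 of the 12 fits). The count of FGF genes lower ran from 1 to 7 over the fits that left out 1 library. Cdh1, the epithelial cadherin counted here with endoderm, was at 566 to 611 CPM in day 3 control and 572 to 631 CPM in day 3 Dox, and at 5.64, 6.55 and 6.05 CPM in day 5 control and 3.78, 2.55 and 2.95 CPM in day 5 Dox. Its levels overlap at day 3 and separate at day 5 (-1.01 ± 0.13, adjusted p = 0.00031). Cdh1 and Foxa2 were the genes that passed among 10 tested endoderm genes (median -0.55), whose summed level was 33.4 to 39.8 CPM in day 5 control and 18.1 to 30.3 CPM in day 5 Dox; Sox17, which defines endoderm, was at most 0.388 CPM in all 12 libraries.

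In a list of Trp53, the tumour suppressor p53, and its targets, 11 of 21 tested genes were lower and 0 higher, beside 1.91% of all genes lower. Its median was -0.29. p53 acts as a transcription factor that slows the cell cycle and promotes cell death. Plk2, a p53-induced kinase, was at 57.9, 59.1 and 56.0 CPM in day 3 control and 55.7, 57.1 and 57.4 CPM in day 3 Dox. Plk2 (ENSMUSG00000021701.8, GRCm38 chr13:110395046-110400844) was at 39.4, 39.1 and 41.4 CPM in day 5 control and 19.4, 19.7 and 18.9 CPM in day 5 Dox, and its change of -1.03 ± 0.063 had the lowest adjusted p of all genes, 4.9e-07. The groups overlap at day 3, and every day 5 Dox library lies below every day 5 control library.

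Cdkn1a, which encodes the cell cycle inhibitor p21, was at 282, 279 and 289 CPM in day 3 control and 261, 270 and 272 CPM in day 3 Dox, and at 119, 127 and 127 CPM in day 5 control and 75.6, 66.3 and 66.6 CPM in day 5 Dox. Dox lay below control on both days, by -0.08 ± 0.047 at day 3, which did not pass, and -0.84 ± 0.049 at day 5. The change was -0.76 ± 0.068 (adjusted p = 1.1e-05). Phlda3, a repressor of AKT, was lower by -0.77 ± 0.064 (adjusted p = 5.9e-06), and Perp, an effector of p53 in cell death, by -1.38 ± 0.25 (adjusted p = 0.0047). The pro-apoptotic Bbc3 (Puma) was at 67.8, 72.3 and 71.2 CPM in day 5 control and 44.3, 41.9 and 39.9 CPM in day 5 Dox (-0.74 ± 0.092, adjusted p = 0.00027). Tnfrsf10b, Eda2r, Ccng1, Aen, Zmat3 and Ei24 were also lower, from -0.73 to -0.23. In the library-size scaling 8 genes of the list were lower, and leaving out 1 library gave 8 to 13. Trp53 itself was at -0.09 ± 0.052 (adjusted p = 0.43), and Mdm2, the target that degrades p53, at -0.20 ± 0.065 (adjusted p = 0.12). In the fit of all 18 libraries 2 p53 targets were lower, with a median of -0.28.

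The integrated stress response, in which the factor ATF4 raises amino acid synthesis, amino acid transport and aminoacyl-tRNA synthetases, gave the largest count of lower genes. Of 27 tested genes 14 were lower and 0 higher (median -0.41), beside 1.91% of all genes lower. Of the 20 cytosolic aminoacyl-tRNA synthetases, which charge tRNAs with amino acids, 9 were lower and 0 higher (median -0.19). In the fit of all 18 libraries 4 and 0 genes of these lists were lower, with medians of -0.40 and -0.17. ATF4 binds, with a C/EBP partner, an element written TGATGNAA. It was found on either strand in the 250 bases before the start of 7 of 23 stress response genes that matched the promoter table (30.4%), in 4 of 11 that were lower and in 3 of 12 that did not pass. It was found in 3.91% of all 27025 genes of the table, in 2.73% of the 183 matched genes higher and in 2.65% of the 226 matched genes lower. A gene was counted if any of its promoters in the table held the element. Of the synthetase genes that matched the table, 1 of 3 that were lower and 2 of 9 that did not pass hold it. A match describes letters and does not show binding. The matches of the 4 stress response genes that were lower, of the synthetase gene Gars and of Slc7a11, which did not pass and holds 2 matches, are shown as examples of where the element stands (RefSeq, GRCm38.p6, 5′ to 3′ on the gene's strand, the element in capitals). Nupr1, Vldlr, Aars and Tars, which did not pass, also hold it and are not printed. The printed stretches lie at chr1:191183354-191183473 minus strand (Atf3), chr2:119351019-119351138 plus strand (Chac1), chr6:7693210-7693262 minus strand (Asns), chr11:120643762-120643881 minus strand (Pycr1), chr6:55037941-55038000 plus strand (Gars) and chr3:50443614-50443709 minus strand (Slc7a11).
Atf3: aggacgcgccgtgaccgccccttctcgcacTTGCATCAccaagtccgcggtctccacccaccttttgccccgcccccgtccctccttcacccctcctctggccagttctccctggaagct
Chac1: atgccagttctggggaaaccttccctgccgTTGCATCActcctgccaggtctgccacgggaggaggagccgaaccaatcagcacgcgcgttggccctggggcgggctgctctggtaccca
Asns: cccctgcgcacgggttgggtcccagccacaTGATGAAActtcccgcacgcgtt
Pycr1: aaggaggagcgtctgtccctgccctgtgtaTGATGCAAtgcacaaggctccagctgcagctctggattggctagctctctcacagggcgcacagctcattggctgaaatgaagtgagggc
Gars: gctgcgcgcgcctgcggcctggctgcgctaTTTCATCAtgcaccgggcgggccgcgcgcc
Slc7a11: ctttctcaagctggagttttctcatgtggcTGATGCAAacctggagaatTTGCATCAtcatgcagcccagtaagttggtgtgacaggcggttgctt

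In Atf3, Chac1 and Gars the element lies on the opposite strand, so its reverse complement is in capitals; in Asns and Pycr1 it lies on the gene's strand, and in Slc7a11 there is 1 match on each strand. Asns, Pycr1 and Gars, and the other list members outside the naming rule that are given with values, were picked after their values were seen.

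Slc7a3, a cationic amino acid transporter, was at 97.6, 94.9 and 92.5 CPM in day 3 control and 95.4, 95.8 and 101 CPM in day 3 Dox. At day 5 it was at 8.44, 10.2 and 8.53 CPM in control and 5.76, 4.75 and 3.70 CPM in Dox, a change of -0.97 ± 0.14 (adjusted p = 0.00073). Dox and control overlap at day 3 and separate at day 5. Eif4ebp1, which restrains cap-dependent translation, was at 71.3, 84.0 and 81.4 CPM in day 5 control and 57.4, 48.1 and 45.0 CPM in day 5 Dox (-0.63 ± 0.10, adjusted p = 0.0024), with day 3 means of 206 ± 11 and 203 ± 3.7 CPM (SD). Asns, which makes asparagine, was at 154, 178 and 162 CPM in day 5 control and 120, 105 and 94.6 CPM in day 5 Dox (-0.60 ± 0.096, adjusted p = 0.0018).

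Atf3, a factor induced in the response, was lower by -0.92 ± 0.19 (adjusted p = 0.011), and the proline synthesis enzyme Pycr1 by -0.50 ± 0.10 (adjusted p = 0.012). Chac1, which degrades glutathione, was at -1.12 ± 0.29 (adjusted p = 0.046, 0.05 or above in 9 of the 12 fits and 0.13 in DESeq2). The serine synthesis enzymes Psat1 and Phgdh were lower by -0.48 ± 0.057 and -0.40 ± 0.058, and Sesn2, a sensor of leucine, by -0.57 ± 0.078. Atf4 mRNA was at -0.19 ± 0.068 (adjusted p = 0.17) and Ddit3 (CHOP) at -0.08 ± 0.21 (adjusted p = 0.91). Slc7a11, the cystine transporter whose promoter is printed with 2 matches, fell to under 0.6 CPM by day 5 in both courses, and its change was -1.30 ± 0.55 (adjusted p = 0.27). The list's summed level was 3850 to 3890 CPM in day 3 control and 3700 to 3830 CPM in day 3 Dox, and 2060 to 2250 CPM in day 5 control and 1470 to 1680 CPM in day 5 Dox.

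Among the synthetases, Yars was at 163, 175 and 165 CPM in day 5 control and 129, 114 and 110 CPM in day 5 Dox (-0.44 ± 0.081, adjusted p = 0.005). Mars, Cars, Nars and Gars were lower by -0.38 ± 0.065, -0.36 ± 0.077, -0.29 ± 0.062 and -0.28 ± 0.053. These are changes of 1.21 to 1.36 times, and each of these 5 kept the call whichever library was left out. Iars, Vars, Wars and Lars also passed, but their calls were not followed singly in the other fits. Leaving out 1 library gave 6 to 10 synthetases lower.

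**Figure D2:**
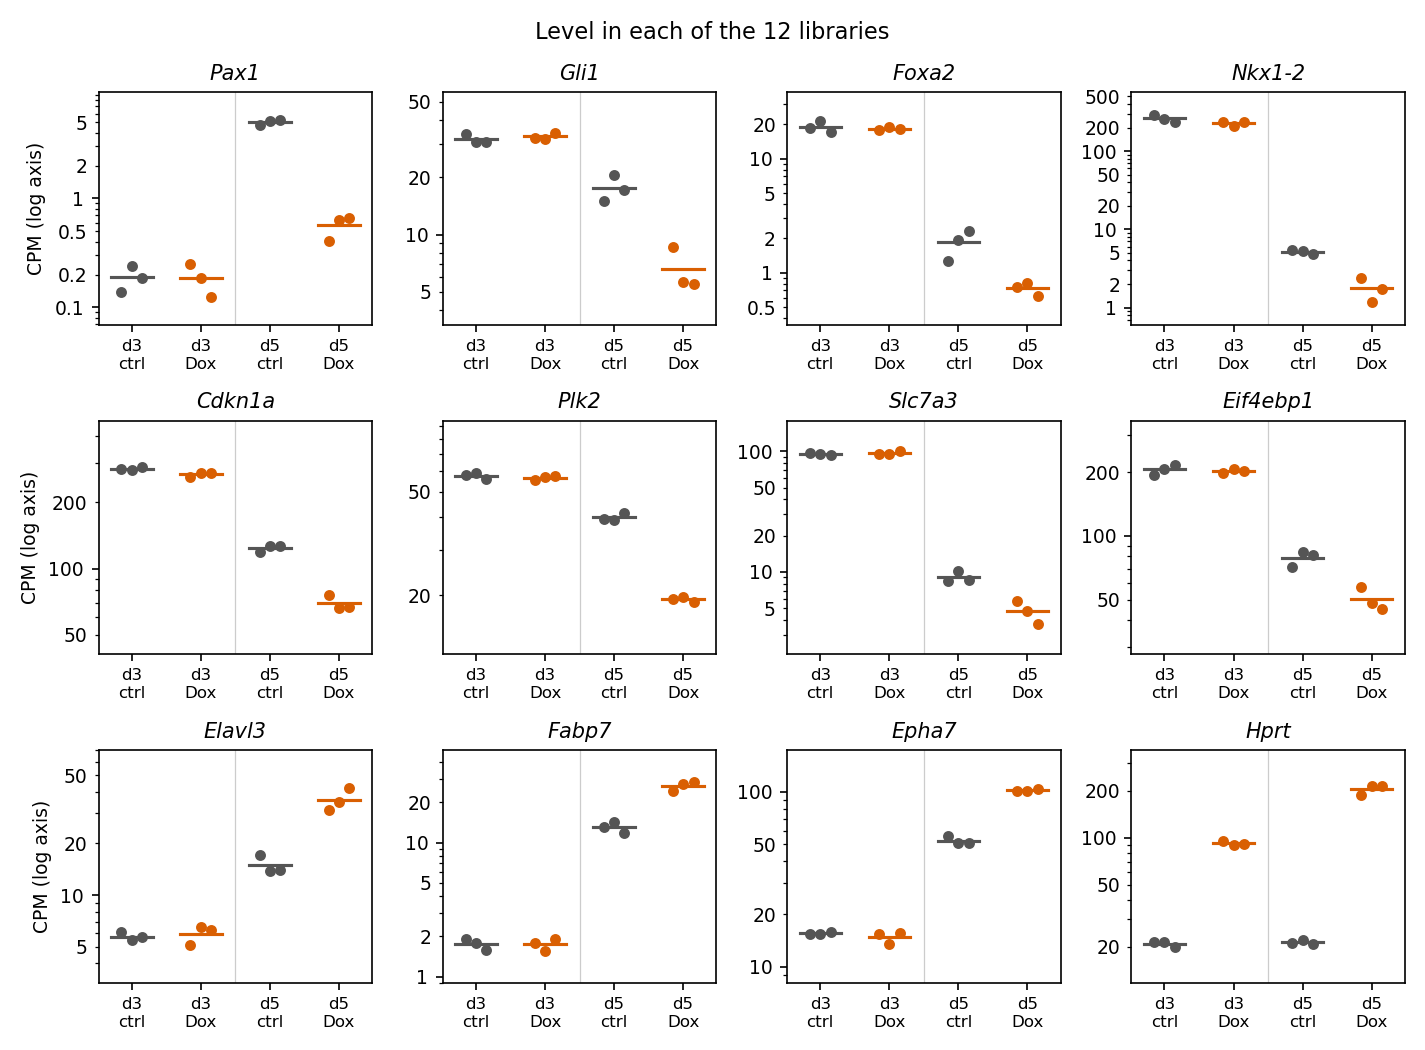
Level (CPM, log axis) of 12 genes in each of the 12 libraries, with day 3 and day 5 (d3, d5), control (grey) and Dox (orange) side by side, each point 1 library and each line the mean of 3. In 11 panels Dox and control lie close together at day 3 and apart at day 5, and Hprt is apart on both days, at means of 20.9 and 92.1 CPM at day 3 and 21.4 and 206 CPM at day 5.

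Genes of glycolysis and the hypoxia response gave 4 lower of 28 tested and 0 higher (median -0.24), 7 lower with the replicate number as a block, and 2 to 11 when 1 library was left out. Slc2a1, the main glucose transporter, was at 504, 452 and 478 CPM in day 3 control and 501, 445 and 479 CPM in day 3 Dox. It was at 898, 1010 and 952 CPM in day 5 control and 745, 584 and 547 CPM in day 5 Dox (-0.60 ± 0.12, adjusted p = 0.01), so it rose on both courses and by less in Dox. The glycolytic enzyme Pgam1 was lower by -0.31 ± 0.058 (adjusted p = 0.0058). Aldoa and Ldha, at -0.33 ± 0.083 and -0.36 ± 0.09, had adjusted p of 0.05 or above in 8 of the 12 fits each.

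All 26 tested genes of ribosome biogenesis had values below 0, with a median of -0.16, and 0 passed, but 7 were lower with the replicate number as a block. All 18 tested S phase genes were below 0 too (median -0.15, 0 passed, 4 lower with the block). Genes measured in the same libraries are not independent, so a sign shared within a list is not a test. Mcm7, a subunit of the replicative helicase, was at 651 to 695 CPM in day 5 control and 590 to 609 CPM in day 5 Dox, and its change was -0.18 ± 0.048 (adjusted p = 0.059, 0.036 with the block and 0.013 with DESeq2). For Mcm5, another subunit, it was -0.16 ± 0.046 (adjusted p = 0.074, 0.046 with the block and 0.016 with DESeq2). Of 19 mitosis genes 0 passed (median -0.02, 0.01 with library size alone): Top2a and Mki67 were both at 0.00, with SE of 0.054 and 0.089.

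Of 39 tested lysosomal genes, 35 had values above 0, with a median of 0.14, and 1 passed (3 with the block). This was Tpp1, a lysosomal peptidase, at 61.4, 61.8 and 60.0 CPM in day 5 control and 72.5, 75.2 and 78.3 CPM in day 5 Dox (0.30 ± 0.057, adjusted p = 0.0068). Its day 3 values were 83.5 to 87.9 CPM in control and 85.7 to 87.0 CPM in Dox. The list's summed level was 2260 to 2330 CPM in day 5 control and 2470 to 2620 CPM in day 5 Dox.

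**Figure D3:**
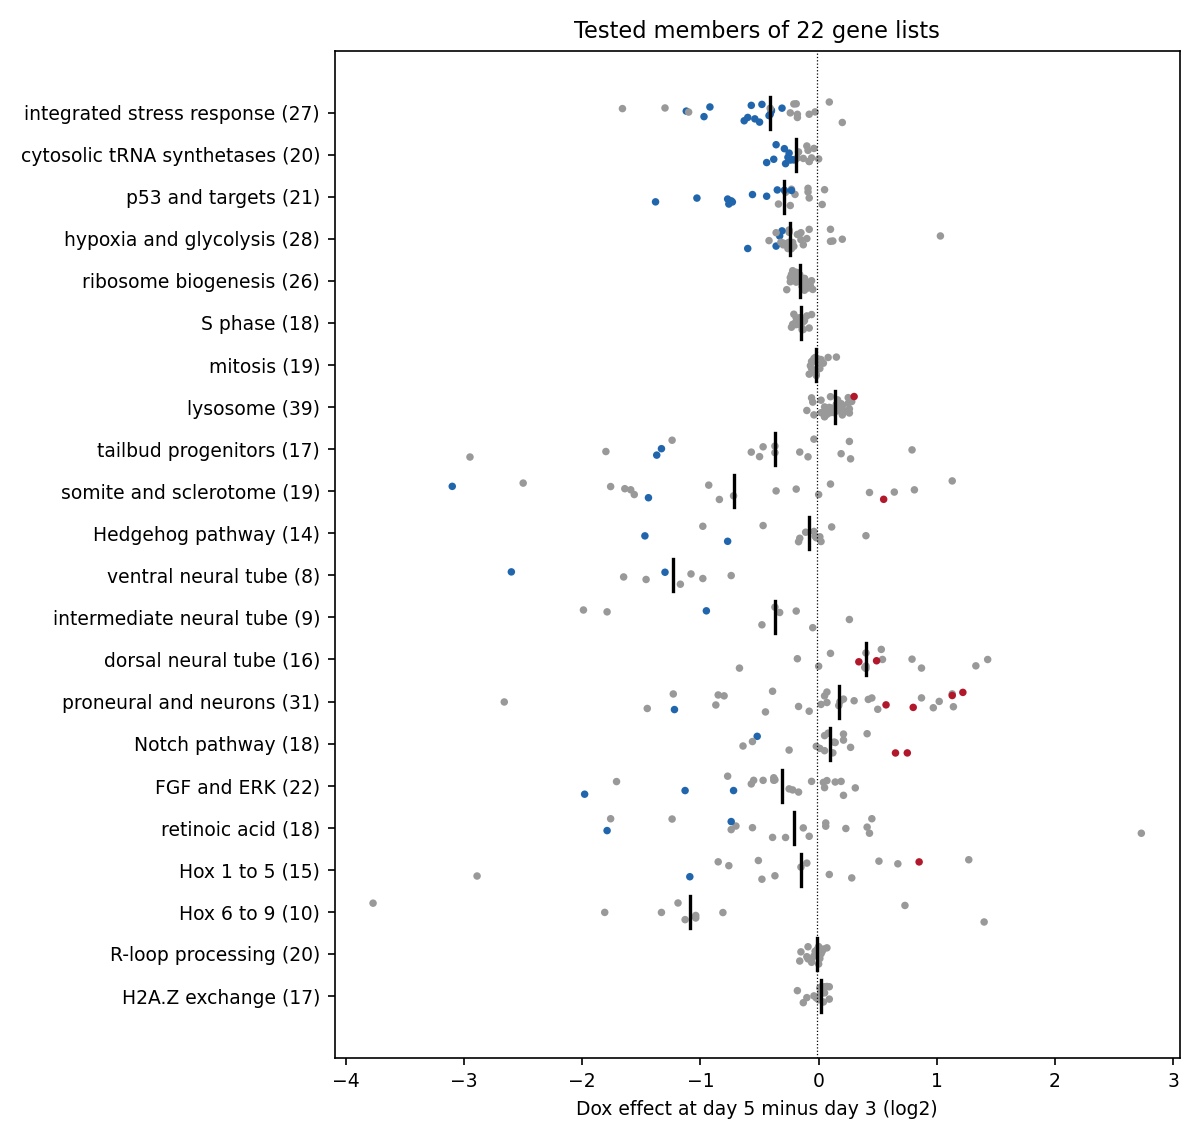
Change in the Dox effect from day 3 to day 5 (log2, horizontal axis) for every tested member of 22 gene lists, with the number tested in parentheses, genes that passed in red (higher) or blue (lower), the others in grey, and the median as a black bar. Stress response, synthetase and p53 lists hold 14, 9 and 11 blue points, and the R-loop and H2A.Z lists hold none and centre on 0.

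Elavl3, a neuronal RNA-binding protein, was among the 14 highest changes of genes with a mean of at least 5 CPM in 1 group. It was at 6.09, 5.43 and 5.66 CPM in day 3 control and 5.12, 6.48 and 6.21 CPM in day 3 Dox. It was at 17.1, 13.9 and 14 CPM in day 5 control and 31.4, 34.9 and 42.2 CPM in day 5 Dox (1.22 ± 0.17, adjusted p = 0.0008). Elavl3 rose in both courses, by 1.39 ± 0.12 in control and 2.61 ± 0.12 in Dox. Its relative Elavl4 was higher by 1.13 ± 0.24 (adjusted p = 0.014, 0.05 or above in 2 of the 12 fits, those without day 3 control replicate 1 and day 3 Dox replicate 3, at 0.05 and 0.055). Map2, a microtubule protein of dendrites, was at 7.54 to 10.8 CPM in day 5 control and 15.7 to 16.5 CPM in day 5 Dox (0.80 ± 0.17, adjusted p = 0.015, 0.053 without day 5 control replicate 3), and Stmn2, a regulator of microtubules in axons, was higher by 0.57 ± 0.10. Gap43, a growth cone protein, was lower, at 4.61, 5.30 and 4.96 CPM in day 5 control and 2.61, 2.07 and 2.63 CPM in day 5 Dox (-1.22 ± 0.18, adjusted p = 0.0012).

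Of 31 tested proneural and neuronal genes 4 were higher, 1 lower and 26 did not pass (median 0.17). The early neuronal marker Tubb3 was at 0.50 ± 0.15 (adjusted p = 0.084) and Dcx at 1.02 ± 0.36 (adjusted p = 0.16). The list's summed level was 176 to 193 CPM in day 5 control and 215 to 251 CPM in day 5 Dox, and 256 to 274 and 255 to 271 CPM at day 3. Fabp7, a fatty acid binding protein of radial glia, was at 13, 14.3 and 11.8 CPM in day 5 control and 24.1, 27.5 and 28.3 CPM in day 5 Dox, with day 3 values of 1.56 to 1.91 CPM in all 6 libraries (1.02 ± 0.18, adjusted p = 0.0036). Pax6, a factor of neural progenitors, was lower by -0.95 ± 0.19 (adjusted p = 0.01, 0.05 or above in 2 of the 12 fits, 0.051 without day 3 Dox replicate 2 and 0.083 without day 3 Dox replicate 3). It was at 264 to 278 CPM in day 5 control and 195 to 206 CPM in day 5 Dox, a Dox effect of -0.43 ± 0.043. At day 3 Pax6 was below 1 CPM, with means of 0.583 CPM in control and 0.851 CPM in Dox. The day 3 effect of 0.52 ± 0.19 did not pass, and the change of -0.95 includes it. Fabp7 and Pax6 were the 2 that passed of 12 neural progenitor genes (median 0.10).

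In the dorsal neural tube list 14 of 16 tested genes had values above 0 (median 0.40, 0.44 with 2 genes that had a group at 0 set to a floor of 3 counts per library), and 2 were higher. Zic2, a zinc finger factor of the dorsal neural tube and of earlier epiblast, was higher by 0.34 ± 0.067 (adjusted p = 0.0089). Zic2 was at 42.7, 38.3 and 36.7 CPM in day 5 control and 46.4, 48.0 and 47.9 CPM in day 5 Dox. It fell from day 3 to day 5 in control and in Dox, by less in Dox. The dorsal homeobox factor Msx3 was at 1.42 to 1.74 CPM in day 5 control and 5.41 to 6.30 CPM in day 5 Dox, and its change was 1.33 ± 0.46 (adjusted p = 0.15). The dorsal list summed to 143 to 165 CPM in day 5 control and 209 to 215 CPM in day 5 Dox. Of 9 intermediate neural tube genes 1 was lower (Pax6), with a median of -0.37 (-0.19 with 2 genes at the floor).

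Of the hindbrain genes, Hoxb2 was at 76.3 to 83.5 and 99.5 to 119 CPM at day 5 (0.85 ± 0.22, adjusted p = 0.045, 0.05 or above in 7 of the 12 fits and 0.12 in DESeq2). Pax2, a factor of the midbrain-hindbrain boundary, intermediate mesoderm and spinal interneurons, was at 0.080 to 0.160 CPM in day 3 control, 0.314 to 0.633 CPM in day 3 Dox, 3.92 to 4.28 CPM in day 5 control and 2.77 to 3.11 CPM in day 5 Dox. Its Dox libraries lay above control at day 3 and below at day 5, with a change of -2.26 ± 0.40 (adjusted p = 0.0038). The Dox effect alone passed on neither day. It was 1.78 ± 0.37 at day 3 (adjusted p = 0.18), where levels were near 0, and -0.47 ± 0.15 at day 5 (adjusted p = 0.056). Over 17 midbrain and hindbrain genes 2 were higher and 2 lower (median 0.01).

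Hox genes of groups 6 to 9, which mark the trunk, were near 0 at day 3, so their change between days was imprecise. Of 10 tested, 0 passed (1 lower with the block), with a median of -1.09 (-1.15 with 4 genes at the floor). Hoxb9 was at 0.104 to 0.187 CPM in the 6 day 3 libraries, 236, 258 and 269 CPM in day 5 control and 138, 119 and 111 CPM in day 5 Dox. Its Dox effect was -1.05 ± 0.065 at day 5 (adjusted p = 5.2e-08) and its change -1.33 ± 0.59 (adjusted p = 0.29). Hoxb8 was at 135, 138 and 142 CPM in day 5 control and 74.7, 79.3 and 71.5 CPM in day 5 Dox, with a change of -0.81 ± 0.88. The summed level of the list was 430 to 480 CPM in day 5 control and 213 to 243 CPM in day 5 Dox, and at most 1.47 CPM at day 3. Of Hox groups 1 to 5, 1 gene of 15 was higher (Hoxb2) and 1 lower, with 2 and 2 under the block and a median of -0.15. Of groups 10 to 13 only Hoxd13 was tested, and it was at 0 in the day 5 control libraries. Forebrain genes gave 1 lower of 7 tested, Foxd1 (-1.36 ± 0.34, adjusted p = 0.035, 0.05 or above in 8 of the 12 fits), and a median of -0.14 that moves to 0.81 with 1 gene at the floor. The neural crest list gave 1 lower of 14, Ets1, at 21.4 to 26.9 CPM in day 5 control and 13.7 to 14.5 CPM in day 5 Dox (-0.76 ± 0.13, adjusted p = 0.0024).

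Notch and BMP genes passed in both directions, and Eph genes passed as higher. Nrarp, a feedback inhibitor that Notch induces, was at 85.5, 78.7 and 76.6 CPM in day 5 control and 106, 144 and 140 CPM in day 5 Dox (0.65 ± 0.13, adjusted p = 0.01). Its day 3 values were 17.9 to 19.4 CPM in control and 19.2 to 19.7 CPM in Dox. The Notch ligand Dll3 was higher (0.75 ± 0.18, adjusted p = 0.032, 0.05 or above in 6 of the 12 fits) and the target Hey1 lower (-0.52 ± 0.12, adjusted p = 0.027, also 6 of the 12 fits), so that of 18 Notch genes 2 were higher and 1 lower. Nrarp and Dll3 are also the 2 higher of 11 genes of the segmentation clock (median 0.05). Epha7, a receptor of ephrin signals between neighbouring cells, was at 15.5, 15.4 and 15.9 CPM in day 3 control and 15.4, 13.5 and 15.6 CPM in day 3 Dox. Epha7 was at 55.8, 50.9 and 51.1 CPM in day 5 control and 101, 101 and 104 CPM in day 5 Dox (1.03 ± 0.081, adjusted p = 4.5e-06). The ligand Efnb2 was higher by 0.54 ± 0.11 (adjusted p = 0.012), and of 18 Eph and ephrin genes 2 were higher and 0 lower (3 and 1 with the block).

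Of 16 BMP genes, Id2, a target and inhibitor of basic helix-loop-helix factors, was higher (0.85 ± 0.21, adjusted p = 0.035, 0.05 or above in 8 of the 12 fits), Fst was higher and the ligand Bmp7 lower (-0.72 ± 0.16, adjusted p = 0.02, 0.05 or above in 4 of the 12 fits). Ccnd1, the cyclin D1 gene that WNT and other signals induce, was the 1 of 13 WNT targets to pass. It was at 163, 154 and 151 CPM in day 5 control and 208, 217 and 225 CPM in day 5 Dox, against means of 187 ± 6.1 and 181 ± 5.5 CPM at day 3 (SD) (0.53 ± 0.061, adjusted p = 0.00016). Of 14 WNT ligands 0 passed, the nearest named being Wnt8a (0.73 ± 0.20, adjusted p = 0.059, 0.035 with the block and 0.0044 with DESeq2). Of 11 Nodal genes 0 passed (median 0.30).

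Pou5f1 (Oct4), a core factor of pluripotency, fell in both courses. It was at 1100 to 1230 CPM in day 3 control and 1070 to 1160 CPM in day 3 Dox, and at 1.84 to 4.25 CPM in day 5 control and 4.09 to 5.83 CPM in day 5 Dox. Its groups overlap on both days, and its change of 0.63 ± 0.23 did not pass (adjusted p = 0.19, 1.8e-07 with no filter on low counts). The fit with no filter gave far lower adjusted p for genes whose change hardly moved. Asns was at -0.61 there and -0.60 in the main fit, with adjusted p of 1.2e-17 and 0.0018. The lower adjusted p of Pou5f1 without the filter is therefore not read as a result. Lin28a, an RNA-binding protein of early cells, was at 267 to 277 and 296 to 319 CPM at day 5 (0.18 ± 0.052, adjusted p = 0.07, 0.026 with the block and 0.0096 with DESeq2). Of 14 core and formative pluripotency genes 0 passed (median 0.35), 3 higher with the block. Of 13 naive pluripotency genes 1 was lower: Tbx3, also a factor of several mesoderm tissues, at 2.94, 4.05 and 3.73 CPM in day 5 control and 1.29, 1.57 and 1.49 CPM in day 5 Dox (-1.33 ± 0.21, adjusted p = 0.0015).

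Genes that process R-loops and genes of H2A.Z deposition and removal, both named in the title of the series, did not pass: 0 of 20 and 0 of 17, with medians of -0.01 and 0.02 (0.02 and 0.05 with library size alone). The helicase Ddx5 was at -0.01 ± 0.055, and H2afz, which encodes H2A.Z.1, at -0.10 ± 0.063 (adjusted p = 0.48). The mitochondrial mRNAs took a higher share of counts in Dox on both days, 3.344 to 3.403% against 2.843 to 3.165% at day 3 and 3.002 to 3.045% against 2.662 to 2.817% at day 5, and 0 of 13 passed for the change between days (median 0.04). mt-Cytb was higher in Dox by 0.32 ± 0.039 at day 3 and 0.30 ± 0.039 at day 5. The nuclear copy Gm28438, whose reads cannot be separated with certainty from mitochondrial RNA, was lower by -0.93 ± 0.21 (adjusted p = 0.022, 0.05 or above in 6 of the 12 fits). The part of the mitochondrial share in the results was not tested.

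Hprt, a purine salvage enzyme on the X chromosome, was chosen for mention with its values known. It was at 21.4, 21.5 and 19.9 CPM in day 3 control and 94.5, 90.2 and 91.6 CPM in day 3 Dox. Hprt (ENSMUSG00000025630.8) was at 21.1, 22.1 and 21.0 CPM in day 5 control and 187, 215 and 215 CPM in day 5 Dox. Its change between the days did not pass in control (0.03 ± 0.062, adjusted p = 0.65), while Dox rose by 1.16 ± 0.052, a change in the Dox effect of 1.13 ± 0.081 (adjusted p = 2.5e-06).

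Cell types that a gastruloid might also hold were looked at through their markers. Of 3 tested cardiac genes 0 passed, and Nkx2-5, Myl7 and Tnnt2, which define heart cells, were at most 0.22, 0.217 and 0.658 CPM in any of the 12 libraries and were not tested. The cardiac list summed to 2.60 to 3.12 CPM in day 5 control and 2.39 to 2.86 CPM in day 5 Dox. Of 8 primordial germ cell genes 0 passed (1 lower with the block), with sums of 45.0 to 48.5 and 39.3 to 48.0 CPM at day 5. Of 8 extraembryonic genes 0 passed, with sums of 2.64 to 3.65 and 3.17 to 4 CPM. Of 11 endothelial and blood genes Tek, a receptor of angiopoietins, was higher (0.248 to 0.329 CPM in day 5 control and 0.566 to 1.23 CPM in day 5 Dox, 2.26 ± 0.50, adjusted p = 0.018, 0.05 or above in 3 of the 12 fits) and Egfl7 lower (-0.46 ± 0.12, adjusted p = 0.043, 0.05 or above in 8 of the 12 fits). The endothelial and blood list summed to 22.8 to 27.4 CPM in day 5 control and 22.3 to 24.3 CPM in day 5 Dox. Intermediate and lateral mesoderm gave 1 lower of 8 tested, Pax2, with sums of 16.4 to 17.2 and 12.6 to 15.8 CPM. The part of these cell types in the results was not tested.

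Of the 14 genes named by rule for the highest values, Slc44a5, a choline transporter-like protein, was at 2.04, 2.14 and 2.21 CPM in day 3 control and 2.54, 2.31 and 2.76 CPM in day 3 Dox. It was at 5.10, 5.50 and 5.57 CPM in day 5 control and 20.5, 20.6 and 23.9 CPM in day 5 Dox (1.75 ± 0.16, adjusted p = 1.1e-05). Dox was above control on both days, by 0.25 ± 0.13 at day 3, which did not pass, and 2.00 ± 0.092 at day 5. Grm4, a glutamate receptor, was at 3.72, 4.05 and 2.53 CPM in day 5 control and 10.6, 11.8 and 13.4 CPM in day 5 Dox (1.68 ± 0.22, adjusted p = 0.00037), and its change in control between the days did not pass (0.11 ± 0.16, adjusted p = 0.57). Atp1b2, a subunit of the sodium pump, fell in both courses, by -3.71 ± 0.085 in control and -2.23 ± 0.073 in Dox. It was at 4.25, 5.00 and 3.49 CPM in day 5 control and 12.9, 11.9 and 12 CPM in day 5 Dox (1.48 ± 0.12, adjusted p = 4.5e-06).

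Gpm6b, a membrane glycoprotein of neurons and glia, fell in control by -1.34 ± 0.12 and its course in Dox did not pass (0.12 ± 0.11), a change of 1.47 ± 0.17 (adjusted p = 0.00014). The neuronal RNA-binding protein Celf3, the phosphodiesterase Pde1b, the adaptor Garem2, the zinc finger protein Zfp981 and the actin crosslinker Actn3 were higher by 1.61 ± 0.30, 1.55 ± 0.22, 1.29 ± 0.20, 1.28 ± 0.23 and 1.26 ± 0.15. Each of these kept the call whichever library was left out. Dcc, the netrin receptor of growing axons, had means of 2.28 ± 0.76 CPM in day 5 control and 6.06 ± 0.93 CPM in day 5 Dox (SD) (1.76 ± 0.46, adjusted p = 0.046, 0.05 or above in 10 of the 12 fits). Vrtn, a factor of vertebral number, was at 147 to 166 CPM in the 6 day 3 libraries and under 0.5 CPM at day 5 (1.69 ± 0.41, adjusted p = 0.03, 0.05 or above in 4 of the 12 fits). Foxl2os is antisense to Foxl2, and since the counting is not stated to use strand its value of 1.40 ± 0.33 is uncertain, and its adjusted p of 0.027 was 0.05 or above in 7 of the 12 fits.

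**Figure D4:**
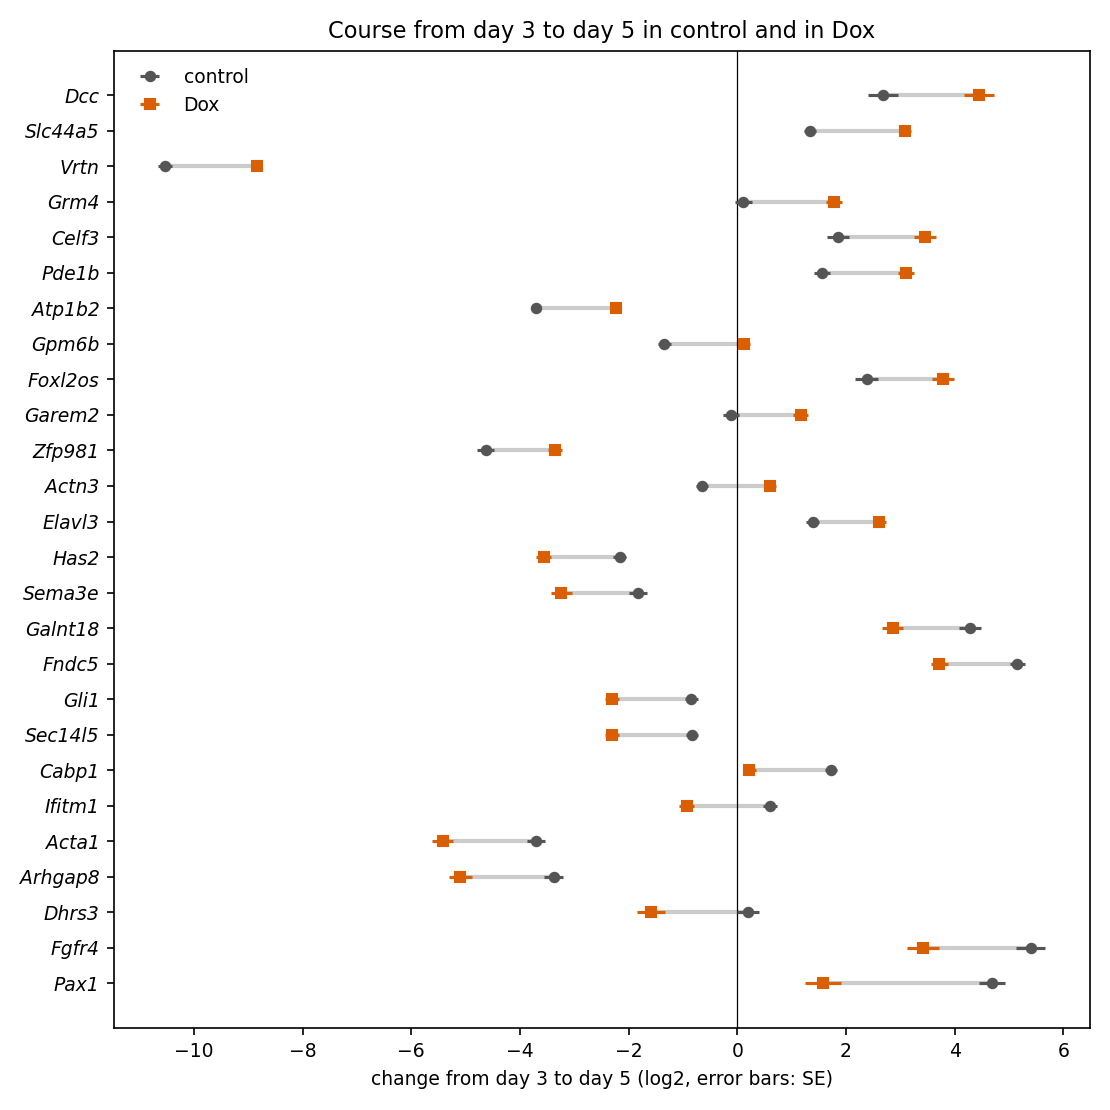
Change from day 3 to day 5 (log2, error bars SE) in control (grey circles) and in Dox (orange squares) for 13 of the 14 genes with the highest and 13 of the 14 with the lowest change in the Dox effect, from Dcc at the top to Pax1 at the bottom. The grey bar between the symbols is the change in the Dox effect, and both sets hold genes that rose in control (Pax1, 4.68) and genes that fell (Vrtn, -10.53).

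Among the 14 lowest, Fndc5, the irisin precursor, was at 109, 135 and 129 CPM in day 5 control and 56.9, 43.1 and 41.6 CPM in day 5 Dox, from 2.90 to 4.08 CPM at day 3 (-1.43 ± 0.23, adjusted p = 0.0019). Cabp1, a calcium binding protein, was at 16.6, 17.5 and 18.4 CPM in day 5 control and 6.33, 4.56 and 6.32 CPM in day 5 Dox (-1.50 ± 0.17, adjusted p = 0.00013), rising in control by 1.72 ± 0.11; the course in Dox, 0.22 ± 0.12, did not pass. Ifitm1, a membrane protein of early mesoderm and germ cells with close relatives, was at 42.0, 64.2 and 58.0 CPM in day 5 control and 27.6, 21.6 and 18.3 CPM in day 5 Dox (-1.53 ± 0.19, adjusted p = 0.00026). It rose in control by 0.60 ± 0.13 and fell in Dox by -0.93 ± 0.14. Its relative Ifitm3 was at -0.45 ± 0.13 (adjusted p = 0.073, 0.041 with the block and 0.04 with DESeq2).

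Acta1, the skeletal muscle actin, whose reads may be shared with other actin genes, was at 5.02, 5.35 and 5.95 CPM in day 3 control and 8.68, 8.23 and 9.91 CPM in day 3 Dox, and under 0.5 CPM in all day 5 libraries (-1.72 ± 0.33, adjusted p = 0.0071). It was higher in Dox at day 3 (0.72 ± 0.11, adjusted p = 0.036), as was the cardiac actin Actc1 (0.44 ± 0.074, adjusted p = 0.048), 2 of the 8 genes called there. Has2, a hyaluronan synthase, and Sema3e, a guidance cue, fell in both courses and further in Dox, with changes of -1.40 ± 0.19 and -1.41 ± 0.27. The lipid transfer protein Sec14l5 and the GTPase activator Arhgap8 were lower by -1.48 ± 0.17 and -1.72 ± 0.33. Galnt18, a mucin-type glycosyltransferase, was at -1.42 ± 0.32 (adjusted p = 0.021, 0.067 without day 3 control replicate 3 and 0.097 without day 3 Dox replicate 1).

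Of 18 imprinted genes, which are expressed from 1 parental copy, 1 was higher and 3 lower. Igf2, a fetal growth factor, was at 183, 179 and 173 CPM in day 5 control and 132, 105 and 96.6 CPM in day 5 Dox (-0.83 ± 0.18, adjusted p = 0.018, 0.05 or above in 3 of the 12 fits). Peg10 was at 1230, 948 and 1120 CPM in day 5 control and 647, 601 and 633 CPM in day 5 Dox (-0.63 ± 0.11, adjusted p = 0.0027), and the adaptor Grb10 was lower by -1.04 ± 0.17. Peg3 was higher (0.50 ± 0.075, adjusted p = 0.0013): it was below control in Dox at day 3 and above at day 5. Its effect at day 3 alone did not pass (adjusted p = 0.58). Of 18 collagen genes Col2a1, the cartilage and notochord collagen, was higher (0.47 ± 0.096; 2 higher with the block), and the basement membrane collagens Col18a1 and Col4a1 were lower (-0.43 ± 0.083 and -0.34 ± 0.068). Esrp1, an epithelial splicing factor, fell from a mean of 102 ± 5.9 CPM (SD) at day 3 to 0.635 ± 0.13 CPM in control and from 103 ± 5.0 to 1.26 ± 0.17 CPM in Dox (0.98 ± 0.21, adjusted p = 0.013, 0.079 without day 5 control replicate 3), while Cdh1 of the same list of 15 was lower (2 higher and 1 lower with the block). Of 17 replication-dependent histone genes 0 passed, and of 10 notochord and floor plate genes 1 was lower (Foxa2).

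The span from the first to the last base of the gene had a median of 37.0 kb for the 243 higher genes, 24 kb for the 320 lower genes and 19.3 kb for all genes tested. Protein-coding genes were 97.5%, 98.4% and 84.1% of these sets. These are descriptions with no test, and level was not matched between the sets.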

How the data were processed

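Poly(A) RNA libraries were deposited as 1 RSEM gene table each. The deposited expected counts, RSEM's estimates of reads per gene, carry each library's depth; the deposited TPM values were carried along but are not printed, and FPKM was not used. Per the submitters' processing notes, Trimmomatic, STAR 2.7.10a, RSEM 1.3.3, DESeq2 1.38.2 and GRCm38 were used; their roles, the annotation release and the strand setting are not given in the sources used here. Of 55401 gene IDs, 55141 matched a GENCODE M21 symbol, 54349 with the version; the other 260 held 0.00532% of counts. Between 6.538 and 7.494% of expected counts were not whole and all were rounded. Ribosomal RNA genes took 0.199 to 0.5315% of counts.

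The 12 day 3 and day 5 libraries were fitted in edgeR 4.0.16 (R 4.3.3) with TMM factors (0.9835 to 1.027), filterByExpr (minimum count 10, total 15), 4 group means, 8 residual degrees of freedom and no block; the common biological coefficient of variation was 0.0552. SE is the log2 fold change over the square root of F. The scripts were tested on simulated data. CPM are given per library, as a range or as mean ± SD. Alternatives were the replicate number as a block, DESeq2 1.42.0, limma-voom (limma 3.58.1), RLE factors or library size in place of TMM, a fit of unfiltered genes, a floor of 1 CPM in 3 libraries, all 18 libraries, an absolute log2 change of at least 1 and leaving out each library.

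The batch label equals the replicate number, so the numbers pair the samples by label. After removal of group means, the correlation over genes between same-numbered libraries was -0.00233 to 0.0518 within a day (6 pairs) and -0.0216 to 0.0786 between days (12 pairs), and for other numbers -0.0607 to 0.0305 and -0.0878 to 0.0877. Genes are not independent replicates here.

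Named genes were Rnaseh1, the 14 highest and 14 lowest changes that passed (symbol not a placeholder, mean of 5 CPM or more in 1 group), and up to 4 called members of each of 49 gene lists (681 genes tested), or the 2 with the highest level where none passed. Members and lists were chosen with earlier results of these data known. Hprt, Asns, Pycr1, Gars and list members outside this rule were chosen after their values were seen. Further motifs were searched and are not reported. A few results are not reported here.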

Additional observations from a re-analysis of the deposited data

Results flagged for a closer look

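The change in the Dox effect between the days is a test of a difference between 2 time points, and by it 243 genes were higher and 320 lower at day 5 than at day 3. Among the named genes past the threshold, 13 of 91 (14.3%) had all 3 Dox libraries on one side of the control libraries at day 3 and on the other side at day 5, beside 77 of the 563 genes past the threshold (13.7%) and 182 of 16733 tested (1.09%). Genes past the threshold were chosen by the change in the Dox effect itself, which favours effects of opposite direction. The larger share among them is therefore not a separate result. Of the 13, 12 are given here. Dox was below control at day 3 and above it at day 5 for Gpm6b (change in the Dox effect 1.47), Garem2 (1.29), Dll3 (0.75), Fst (0.55), Peg3 (0.50) and Zic2 (0.34). Dox was above control at day 3 and below it at day 5 for Pax2 (-2.26), Acta1 (-1.72), Ifitm1 (-1.53), Galnt18 (-1.42), Hey1 (-0.52) and Col4a1 (-0.34). Of these, the day 3 effect alone passed for Acta1 (adjusted p = 0.036, edgeR). The cause was not tested for any of them.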

How the results depend on the processing

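None of the 563 calls reversed its sign under the alternatives run, as far as its gene was tested there. With no filter 436 genes were higher and 555 lower, with all 18 libraries 63 and 83, and with an absolute log2 change of at least 1 57 and 56. Leaving out 1 library gave 149 to 302 higher and 193 to 442 lower; the counts were lowest without day 5 control replicate 3 (149 and 205) and without day 5 Dox replicate 3 (153 and 193). They rose without day 5 control replicate 1 (302 and 361) and without day 5 Dox replicate 1 (285 and 442). The cause was not tested. DESeq2 gave 324 and 406, limma-voom 212 and 302, RLE factors 251 and 298, library size alone 285 and 243 (a shift of the median of all genes by 0.0328), and a filter at 1 CPM 246 and 317. With the replicate number as a block 328 genes were higher and 428 lower, including 556 of the 563; among the named genes no call was lost and 5 were gained (Ifitm3, Lin28a, Mcm5, Mcm7, Wnt8a). Of the 91 named calls, all 18 libraries lost 54, limma-voom 15, library size alone 5 and DESeq2 2. At 27302352 to 38128366 counts per library, the SE of the change was 0.59 for Hoxb9 and 0.88 for Hoxb8, which were near 0 CPM at day 3; other genes near 0 at day 3, such as Pax1 and Pax2, passed.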
